A study of Homo sapiens with 74 samples.

Results

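Chondroitin sulfate is a chain of alternating sugars that cells build on a core protein and then sulfate. The genes described here are 9 enzymes or enzyme partners of its synthesis (XYLT1, CSGALNACT1, CSGALNACT2, CHSY1, CHPF, CHST11, CHST12, CHST3 and CHST15) and SRGN, which encodes serglycin, a core protein that carries such chains. These 10 genes were taken by symbol from count tables that list 28131 genes each. They were chosen by measured values: CHST3 stood first by fold increase in the K562 DOT1L knockout (KO) over the control, among the 10239 tested genes with a mean of at least 5 CPM. CPM is the scaled count relative to the library total. Next after CHST3, with its log2 fold change of 7.03, came GBP4 at 6.62, and among all 14301 tested genes CHST3 held rank 34. For this reason the contrast of DOT1L KO and control is given below as a description, with no p-value.

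K562 and HEL are established erythroleukaemia cell lines of human origin, and their polyadenylated RNA was sequenced. DOT1L methylates lysine 79 of histone H3, and ENL, whose gene symbol is MLLT1, is a reader of acylated histones that joins DOT1L in complexes. The 5 groups were K562 control (genotype wild type, 2 distinct libraries), K562 DOT1L KO (DOT1L-/-, 3 libraries), K562 ENL KO (ENL-/-, 3 libraries), HEL control (2 libraries) and HEL DOT1L knockdown (KD, 2 libraries). K562 control columns 2 and 3 were identical throughout and count here as 1 library. The labels do not say whether replicates were separate cultures, whether a knockout line is 1 clone or how DOT1L was knocked down, so p-values measure only the spread between these libraries, which may be technical. A lane of sequencing is given for control and DOT1L KO libraries of K562 but not for ENL KO, so batch and ENL genotype cannot be told apart.

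A chondroitin chain starts when a xylosyltransferase such as XYLT1 puts xylose on a serine of the core protein. A short linkage region follows, CSGALNACT1 or CSGALNACT2 adds the first N-acetylgalactosamine, and CHSY1 with its partner CHPF lengthens the chain. Sulfotransferases then finish it: CHST11 and CHST12 sulfate carbon 4 of the N-acetylgalactosamine, CHST3 sulfates carbon 6, and CHST15 adds a 6-sulfate to units that already carry a 4-sulfate. In blood cells serglycin is the main proteoglycan of secretory granules, where its chains hold granule proteins such as proteases and platelet factor 4.

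The 250 bases before the annotated start are printed for CHST3, which carries the finding, and for CSGALNACT2, another gene on that chromosome that was higher than control in K562 DOT1L KO and lower in the HEL KD. Both are on the plus strand of GRCh38.p14, at chr10:71964145-71964394 and chr10:43138195-43138444, and come from a table of RefSeq promoters in which 8 of the 10 genes were matched. Capitals mark a GGGCGG match (GC box).
CHST3: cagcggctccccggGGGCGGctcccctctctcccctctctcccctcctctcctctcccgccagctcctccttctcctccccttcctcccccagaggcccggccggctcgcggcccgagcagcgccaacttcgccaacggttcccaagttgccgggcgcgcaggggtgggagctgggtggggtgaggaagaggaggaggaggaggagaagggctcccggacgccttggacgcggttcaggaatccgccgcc
CSGALNACT2: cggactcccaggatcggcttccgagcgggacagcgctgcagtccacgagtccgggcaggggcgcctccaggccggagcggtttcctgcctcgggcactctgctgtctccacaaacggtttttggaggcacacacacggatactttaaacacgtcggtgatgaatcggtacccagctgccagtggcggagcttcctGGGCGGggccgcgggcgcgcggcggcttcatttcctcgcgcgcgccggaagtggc
The CHST3 stretch held 21 CpG dinucleotides and was 72.4% G or C, and the CSGALNACT2 stretch held 29 and was 67.2% G or C. Over all 35116 promoters of the table the medians for the same window were 11 CpG and 58.0% G or C. The motifs searched on both strands were GGGCGG (in 42.64% of all promoters), TATAAA (10.72%), CCAAT (32.01%) and AGATAA, which erythroid factors recognise (9.167%). None of these motifs contains another, and in both stretches GGGCGG was the only one of them with a match, which is a description of the letters and not a site.

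The targeted genes were checked first. DOT1L was at 256 to 270 CPM in K562 control libraries and 176 to 186 CPM in the DOT1L KO, where transcript was still counted, and it fell from 87.3 and 97.4 CPM to 29.1 and 30.0 CPM in the HEL KD. MLLT1 fell in the ENL KO (log2 fold change -0.48, SE 0.05, edgeR adjusted p = 5.26e-06) and was at 216 to 227 CPM in the DOT1L KO, against 213 and 219 CPM in the controls. In the HEL KD MLLT1 rose (0.40, SE 0.05, edgeR adjusted p = 5.72e-10). Total counts were 15404944 to 29236703 in K562 and 12151495 to 12811688 in HEL, so 3 counts were worth at most 0.247 CPM. All 8 erythroid markers were above 1 CPM in every group, and their sum was 6753 to 7289 CPM in K562 controls, 10266 to 10835 in DOT1L KO, 8673 to 8891 in ENL KO, 6236 to 6359 in HEL controls and 8699 to 9369 in the KD. Markers of other cells also moved in K562: the summed level of 6 monocytic and granulocytic markers was 33.8 to 36.9 CPM in the controls, 292 to 324 CPM in the DOT1L KO and 20.1 to 20.8 CPM in the ENL KO, with only LYZ above 1 CPM. The sum of 5 stromal markers was 14.1 to 15.1, 130 to 137 and 15.5 to 17.6 CPM in the same order (mainly COL1A1). The lymphoid sum was 53.9 to 55.6, 17.3 to 21.8 and 62.2 to 73.2 CPM (mainly CD3D). The sum of 5 megakaryocytic markers was 7.30 to 9.93 CPM in the K562 controls, with PF4, GP1BA and GP9 at 0, 33.3 to 35.0 CPM in DOT1L KO and 29.4 to 36.8 CPM in ENL KO, and it was 2432 to 2478 CPM in the HEL controls and 1846 to 1860 CPM in the KD. The part of all these markers in the results was not tested.

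Serglycin had the most transcript per length of the 10 genes in every group. Its mean level was 68.0 RPKM (CPM per kilobase of exon) in K562 control, 38.7 in DOT1L KO, 33.6 in ENL KO, 66.0 in HEL control and 47.7 in HEL KD. In K562 controls the order below it was CHPF (27.1 ± 0.227 RPKM, SD, n = 2), CHST11 (16.0 ± 0.238), CHSY1 (10.9 ± 0.343), CHST12 (4.39 ± 0.00325) and CSGALNACT2 (2.42 ± 0.105). CSGALNACT1 (0.161 ± 0.0459), CHST3 (0.0170 ± 0.0145), CHST15 (0.00362 ± 0.00512) and XYLT1 (0.00253 ± 0.00358) followed. Neighbours in this order differed by more than their spread down to CSGALNACT1 and CHST3, while CHST3, CHST15 and XYLT1 lay within their spread of each other. The order was the same in the ENL KO, and in DOT1L KO CHST3 (2.31 ± 0.0862 RPKM, n = 3) moved ahead of CSGALNACT1 (0.355 ± 0.0150), behind CHST12 (3.65 ± 0.0374) and CSGALNACT2 (3.44 ± 0.373), which did not differ beyond their spread. In HEL controls CHST11 (37.9 ± 1.05 RPKM) and CHSY1 (30.9 ± 0.301) came right after SRGN, ahead of CSGALNACT2 (8.19 ± 0.0800), CHPF (5.02 ± 0.501), XYLT1 (1.17 ± 0.145), CHST12 (0.682 ± 0.0417), CHST3 (0.419 ± 0.0225), CHST15 (0.152 ± 0.00793) and CSGALNACT1 (0.0319 ± 0.00888). In the KD CHST12 (1.52 ± 0.0418 RPKM, n = 2) stood ahead of XYLT1 (1.20 ± 0.0174), and the rest of the order was as in the controls. K562 fragments and HEL reads were counted and scaled in separate tables, so the lines are set side by side with no test. The exon length listed for CHST12 is 16036 bases, which lowers its RPKM if the shorter forms are the ones expressed.

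**Figure D1:**
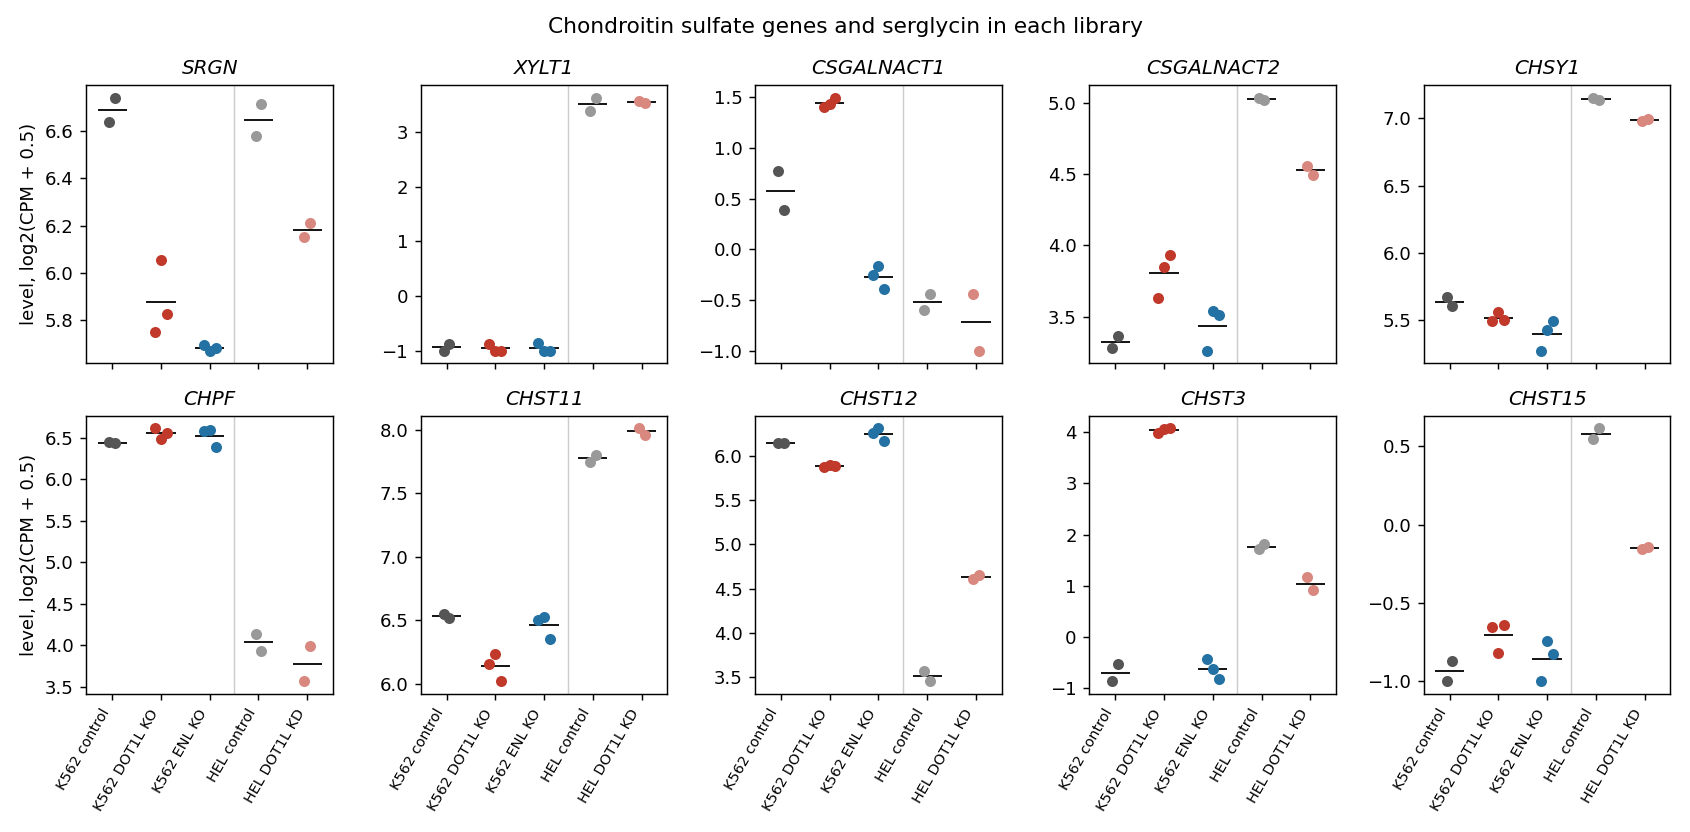
Level of each gene, log2(CPM + 0.5), in every library of the 5 groups; each panel has its own vertical axis, points are libraries, and short lines are group means. CHST3 sits at 15.3 to 16.4 CPM in the 3 DOT1L KO libraries of K562 and at or below 0.241 CPM in the other 5 libraries of that line, whereas SRGN is lower than control in both K562 knockouts and in the HEL KD.

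CHST3, the 6-O-sulfotransferase (chromosome 10, 71964395 to 72013556, GRCh38, plus strand), was close to undetected in K562 controls and readily counted without DOT1L. It had 1 and 4 counts in the controls (0.0465 and 0.189 CPM) and 338, 484 and 347 counts in the DOT1L KO (15.3, 16.3 and 16.4 CPM). In the ENL KO it had 5, 3 and 1 counts (0.241, 0.146 and 0.0651 CPM). The DOT1L KO libraries stood clear of all others, and those of ENL KO overlapped the controls. Summed over libraries and corrected for depth, CHST3 was 137-fold higher in DOT1L KO than in control, with a 95% exact interval of 58.6 to 423 that covers counting error only, and 101-fold higher than in ENL KO (53.1 to 222). Between ENL KO and control the ratio was 1.36 (0.408 to 5.15). The gene passed the filter on low counts in K562 only through the DOT1L KO, so it had to differ there. CHST3 was also picked for its increase in that group, so the intervals with DOT1L KO are no test of it. Its fitted log2 fold change of 7.03 (SE 0.28) became 6.36 without control library 1 and 8.26 without control library 2, since it rests on 5 control counts.

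HEL cells had CHST3 transcript to begin with, and the direction there was the opposite, a difference between the lines that was not tested. HEL controls gave 35 and 38 counts (2.79 and 3.01 CPM) and KD libraries 22 and 17 (1.75 and 1.38 CPM), with no overlap between the groups. CHST3 fell in the KD (log2 fold change -0.89, SE 0.29, edgeR quasi-likelihood adjusted p = 0.00773), and the ratio of summed counts was 0.540 (95% exact interval 0.356 to 0.807). The call was lost with DESeq2 and without HEL control 2 or KD 2, where the fold change was -0.73 to -0.90.

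The 4-O-sulfotransferases CHST11 (chromosome 12) and CHST12 (chromosome 7), which act on the same sugar as CHST3 at another carbon, were abundant in K562 from the start. CHST11 was at 93.4 and 91.4 CPM in K562 controls and at 71.0, 74.9 and 64.4 CPM in DOT1L KO, a log2 difference of -0.40 (SE 0.07). CHST12 was at 70.4 and 70.5 CPM in controls and at 58.0, 59.2 and 58.4 CPM in DOT1L KO, a log2 difference of -0.27 (SE 0.06). For both genes every DOT1L KO library was below every control library. In the ENL KO, CHST11 had 90.4, 91.7 and 81.1 CPM and CHST12 had 75.9, 78.9 and 71.3 CPM. Neither was past the threshold there (-0.07, SE 0.07, edgeR adjusted p = 0.461, and 0.10, SE 0.06, adjusted p = 0.227).

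In HEL both 4-O-sulfotransferases rose on DOT1L knockdown. CHST12 went from 11.4 and 10.5 CPM in the controls to 23.8 and 24.8 CPM in the KD, a rise of 1.15 on the log2 scale (SE 0.11, edgeR adjusted p = 2.93e-13). CHST11 went from 215 and 223 CPM to 258 and 249 CPM, a rise of 0.21 (SE 0.04, adjusted p = 1.39e-06). The groups did not overlap for either gene. Set against CHST11 per length, CHST3 amounted to 0.0414% and 0.172% in the K562 controls, 18.0%, 18.1% and 21.2% in DOT1L KO and 0.0668% to 0.222% in ENL KO. The HEL controls gave 1.08% and 1.12%, against 0.565% and 0.462% after KD.

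CHST15 (chromosome 10), which makes the 4,6-disulfated unit, was at or under the floor of 3 counts in every K562 library, so no fold is given. In HEL it had 12 and 13 counts in the controls (0.958 and 1.03 CPM) and 5 in each KD library (0.397 and 0.406 CPM). It passed the filter in HEL only through the controls, and had to be lower in the KD. Its log2 fold change was -1.29 (SE 0.51, edgeR adjusted p = 0.0276), with a ratio of summed counts of 0.404 (95% exact interval 0.173 to 0.871). The call was lost with DESeq2, with no filter and on leaving out any 1 HEL library, and the estimate stayed between -1.23 and -1.34.

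SRGN, the core protein (chromosome 10, 69087446 to 69104811, plus strand), fell in each tested comparison. It was at 99.3 and 107 CPM in the K562 controls and at 51.3, 50.4 and 50.9 CPM in the ENL KO, lower by a log2 difference of -1.02 (SE 0.08, edgeR adjusted p = 3.87e-07). The DOT1L KO libraries held 53.3, 66.0 and 56.3 CPM, a log2 difference of -0.81 (SE 0.08). Every library of either knockout was below both controls, and both knockouts are set against the same control libraries. In HEL it fell from 95.1 and 105 CPM to 70.7 and 73.6 CPM in the KD (-0.47, SE 0.05, adjusted p = 3.25e-11). In bulk RNA, fewer cells with a transcript and less transcript per cell cannot be told apart.

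The first N-acetylgalactosamine is added by either of a pair of enzymes, and CSGALNACT1 (chromosome 8) lay on opposite sides of the controls in the K562 knockouts. Its level was 1.21 and 0.804 CPM in the controls, 2.13, 2.20 and 2.32 CPM in the DOT1L KO and 0.338, 0.389 and 0.260 CPM in the ENL KO, from 4 to 65 counts per library. The 3 groups did not overlap. It fell in the ENL KO (log2 fold change -1.57, SE 0.36, edgeR adjusted p = 0.00313), where the ratio of summed counts was 0.333 (95% exact interval 0.183 to 0.584). That call was lost without control library 1, at -1.25. In the DOT1L KO the ratio to control was 2.20 (1.56 to 3.15), given as a description since this contrast chose the genes. In HEL it had at most 3 counts in any library and was not tested.

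CSGALNACT2 (chromosome 10, 43138445 to 43185306, plus strand), whose upstream bases are printed above, was the more abundant of the pair in every group. It was at 9.20 and 9.79 CPM in the K562 controls and at 11.9, 13.9 and 14.8 CPM in DOT1L KO, a log2 difference of 0.51 (SE 0.12) with no overlap. The ENL KO held 9.08, 11.1 and 10.9 CPM and overlapped the controls (0.12, SE 0.13, edgeR adjusted p = 0.480). In HEL it fell from 32.4 and 32.0 CPM to 23.1 and 22.0 CPM in the KD (-0.51, SE 0.08, adjusted p = 9.19e-07).

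The chain-lengthening pair differed from control by at most 0.25 on the log2 scale in all 3 comparisons. CHSY1 (chromosome 15), the polymerase, was at 50.5 and 48.3 CPM in K562 controls, 44.5, 46.7 and 44.9 CPM in DOT1L KO and 38.2, 42.6 and 44.7 CPM in ENL KO. It fell in the ENL KO by 0.24 on the log2 scale (SE 0.08, edgeR adjusted p = 0.0225), a call that was lost without control 1, control 2 or ENL KO 1 (-0.18 to -0.27). In HEL it fell from 142 and 140 CPM to 125 and 127 CPM (-0.16, SE 0.04, adjusted p = 0.00132), and with upper-quartile scaling the value was -0.08 and not past the threshold. CHPF (chromosome 2), its partner, was at 86.6 and 85.6 CPM in K562 controls, 97.3, 89.1 and 93.4 CPM in DOT1L KO and 94.9, 96.2 and 83.2 CPM in ENL KO (0.09, SE 0.07, adjusted p = 0.346). In HEL CHPF had 17.1 and 14.8 CPM in the controls and 11.4 and 15.4 CPM in the KD (-0.25, SE 0.12, adjusted p = 0.0763), groups that overlapped. It was past the threshold there only without HEL control 2 (-0.35) or without KD 2 (-0.49). An exon of CHPF overlaps TMEM198 on the other strand, and the use of strand in counting is not given in the sources used here.

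XYLT1 (chromosome 16), which starts the chain, had at most 1 count in any K562 library and is given no fold there. In HEL it was expressed at 9.98 and 11.9 CPM in the controls and 11.4 and 11.1 CPM in the KD (log2 fold change 0.04, SE 0.13, edgeR adjusted p = 0.817). An exon of it overlaps LOC102723692 on the other strand. Its paralogue XYLT2 was past the threshold in HEL (0.30, SE 0.05, adjusted p = 2.93e-06). XYLT2 was also expressed in K562, at 15.7 to 17.4 CPM in controls, 19.8 to 22.1 CPM in DOT1L KO and 15.9 to 19.5 CPM in ENL KO. It was not past the threshold in the ENL KO (0.13, SE 0.11, edgeR adjusted p = 0.353).

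Counted together, 8 of the 10 genes passed the filter in K562 and 9 in HEL, and those that passed are not a complete set. In the DOT1L KO 3 were higher (26.9% of all tested genes were) and 3 were lower (24.2% of all), from which nothing is read since this contrast chose the genes. In the ENL KO 0 were higher by edgeR and by DESeq2 (18.8% of all were by edgeR), 0 also at an unadjusted p under 0.05, CHST3 having no test, and 3 were lower (22.2% of all): SRGN, CSGALNACT1 and CHSY1. Directly between the knockouts 4 were higher in DOT1L KO (31.8% of all) and 2 lower (28.3% of all), again as a description. These comparisons share libraries. In the HEL KD 2 rose (27.0% of all) and 5 fell (28.0% of all), of which CHST15 had to be lower by the way it passed the filter, which leaves 4 of 8. With upper-quartile scaling 4412 genes were higher and 2768 lower in HEL (61.4% of the calls higher) in place of 3411 and 3540 (49.1% higher), and 4 of the genes then fell.

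**Figure D2:**
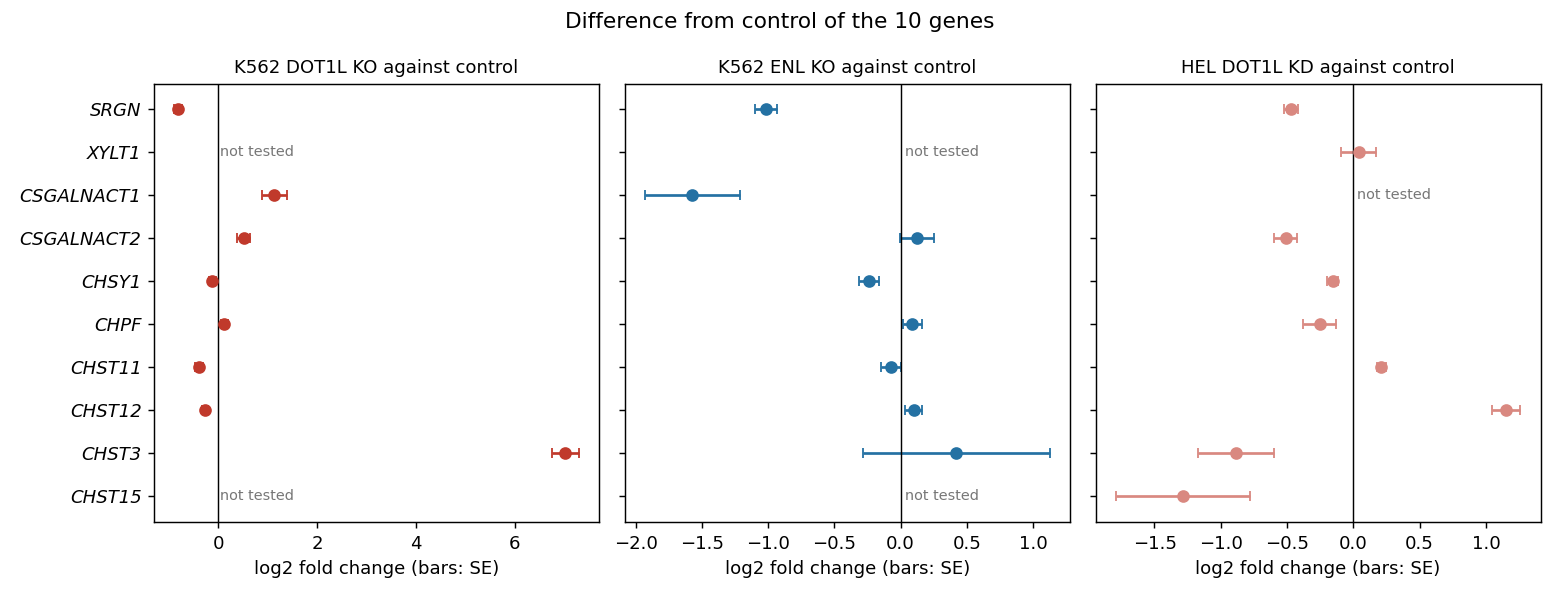
Log2 fold change against control of the 10 genes (points) with its standard error (bars) in K562 DOT1L KO, K562 ENL KO and HEL DOT1L KD; each panel has its own horizontal axis, and genes below the filter are marked as not tested. CHST3 stands at 7.03 in the first panel and at -0.89 in the last, and SRGN is left of 0 in all 3.

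Other genes of chondroitin or dermatan sulfate assembly, breakdown and attachment were taken from 6 lists that hold 45 genes of the tables, none of them among the 10. In the DOT1L KO 35 were tested, 18 were higher (26.9% of all tested genes were) and 5 lower (24.2% of all), with a median log2 fold change of 0.29 against 0.01 over all genes. Fewer were higher there without either control library, and 16 to 19 were when a DOT1L KO library was left out. This is a description, since the lists were chosen with earlier results of these data known. In the ENL KO, set against the same controls, 5 rose (18.8% of all) and 16 fell (22.2% of all), with a median of -0.19 against 0.00, and 3 or 2 rose without control library 1 or 2. In the HEL KD 36 were tested, 11 rose (27.0% of all) and 9 fell (28.0% of all), with a median of 0.06 against 0.01, and 5 fell without KD library 2 or with DESeq2. These counts include genes that passed the filter through 1 group only, VCAN and CD74 in K562 and BCAN and CSPG5 in HEL. THBD passed in HEL only through both groups together and was not past the threshold there (edgeR adjusted p = 0.276). Without all of these in the line named, 16 were higher and 5 lower in DOT1L KO, 5 and 15 in ENL KO and 10 and 8 in HEL. In a list of heparan sulfate enzymes, whose chains start from the same linkage sugars, 3 of 9 were higher and 3 lower in DOT1L KO, 1 rose and 3 fell in ENL KO, and 3 of 9 fell in HEL, where upper-quartile scaling gave 2 that rose and 2 that fell.

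Among the linkage-region enzymes, which build the sugars between serine and the chain, 5 of 6 were higher in DOT1L KO (against 26.9% of all tested genes), but only 2 were without control library 2. FAM20B, the kinase that phosphorylates the first xylose, rose in the ENL KO (log2 fold change 0.38, SE 0.06, edgeR adjusted p = 0.000238). PXYLP1, the phosphatase that removes that phosphate, fell in the ENL KO (-2.59, SE 0.28, adjusted p = 6.43e-06), from 2.42 to 2.55 CPM in the controls to 0.243 to 0.531 CPM. In DOT1L KO it was at 3.78 to 4.04 CPM. In HEL B3GALT6, which adds a linkage galactose, rose by 0.54 (SE 0.12, adjusted p = 0.000106).

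The supply of precursors moved in different directions. PAPSS1, which makes the sulfate donor that all the sulfotransferases above use, was at 54.8 to 57.8 CPM in the K562 controls and 82.6 to 91.9 CPM in DOT1L KO. It fell to 24.2 to 28.8 CPM in ENL KO (-1.12, SE 0.08, edgeR adjusted p = 1.51e-07), and in HEL it was not past the threshold (-0.08, SE 0.04, adjusted p = 0.0926). UGDH, which makes UDP-glucuronate, fell in HEL from 29.9 and 32.2 CPM to 19.0 and 20.1 CPM (edgeR adjusted p = 8.06e-09). It also fell in the ENL KO (-0.52, SE 0.09, adjusted p = 0.000561) and was lower in DOT1L KO (-0.51, SE 0.09). UXS1, which makes UDP-xylose, fell in HEL from 46.1 and 50.4 CPM to 25.1 and 29.7 CPM (adjusted p = 3.62e-13). UXS1 was lower in DOT1L KO (-0.48, SE 0.10) and not past the threshold in ENL KO (-0.19, SE 0.10, adjusted p = 0.141). Of the 9 precursor genes tested in HEL 6 fell (28.0% of all tested genes did) and 1, the sulfate-donor transporter SLC35B2, rose (0.59, SE 0.08, adjusted p = 1.86e-08). CHST14, the sulfotransferase of dermatan units, fell in ENL KO (-1.15, SE 0.11, adjusted p = 1.52e-06), and CHPF2, a paralogue of CHPF, fell by 0.55 (SE 0.08, adjusted p = 6.71e-05).

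Other core proteins can carry chondroitin chains as well. Of 9 tested, 6 were higher (26.9% of all tested genes were) and 1 lower (24.2% of all) in DOT1L KO. In the ENL KO, set against the same controls, 1 rose (18.8% of all) and 6 fell (22.2% of all). Fewer fell there when control library 2 was left out. VCAN and CD74 passed the filter in K562 only through the DOT1L KO, where they had to be higher, and without them 4 of 7 were higher and 1 lower in DOT1L KO and 1 rose and 5 fell in ENL KO. SDC1, a syndecan, had 2.51 to 3.21 CPM in controls, 1.62 to 2.18 CPM in DOT1L KO and 0.0966 to 0.195 CPM in ENL KO. Its log2 fold change in ENL KO was -4.47 (SE 0.38, edgeR adjusted p = 6.18e-07). That rests on 7 counts in ENL KO and 122 in controls, a ratio of 0.0432 (95% exact interval 0.0170 to 0.0918). VCAN (versican) was at 0.418 and 0.662 CPM in controls, at 4.96 to 5.45 CPM in DOT1L KO and at 0.0651 to 0.195 CPM in ENL KO. The last was a fall of -1.73 (SE 0.48, edgeR adjusted p = 0.0109), on 9 counts in ENL KO and 23 in controls. The ratio of summed counts was 0.295 (95% exact interval 0.120 to 0.661). CD74, named after its values were seen and with no control or ENL KO library above the filter, was at 0.232 and 0.425 CPM in controls and 11.8 to 13.3 CPM in DOT1L KO. APLP2, the most abundant of the list, fell in ENL KO (-0.42, SE 0.05, adjusted p = 2.85e-05) and rose in the HEL KD (0.48, SE 0.03, adjusted p = 4.39e-20).

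Of 10 granule proteins that serglycin is known to accompany or that share its granules, 1 passed the filter in K562 and 4 in HEL. PRG2, the eosinophil granule major basic protein, was at 9.16 and 9.55 CPM in K562 controls, 99.3 to 116 CPM in DOT1L KO and 4.06 to 4.43 CPM in ENL KO (log2 fold change -1.13, SE 0.12, edgeR adjusted p = 3.83e-06). The monocytic and granulocytic sum given above moved the same ways in K562, with MPO and ELANE never above 1 CPM. All 4 fell in the HEL KD, where 28.0% of all tested genes did. PRG2 went from 139 and 143 to 35.1 and 36.8 CPM (-1.97, SE 0.05, edgeR adjusted p = 5.71e-35). PF4 (platelet factor 4) fell by 1.85 (SE 0.14) and PPBP by 1.94 (SE 0.18) on the log2 scale. CPA3, a mast cell protease named after its values were seen, fell by 1.32 (SE 0.08). These falls in the HEL KD had edgeR adjusted p of at most 1.28e-13. The megakaryocytic markers, of which PF4 is one, were also lower in sum there, as given above, and their part was not tested. Of the lysosomal enzymes that break down chondroitin or dermatan sulfate, 4 of 7 rose in HEL (27.0% of all tested genes did), each by 0.19 to 0.41 on the log2 scale. In the ENL KO 4 of 8 fell (22.2% of all) and 1 rose (18.8% of all). The largest falls there were HYAL1 (-1.35, SE 0.17, edgeR adjusted p = 2.26e-05), ARSB (-0.75, SE 0.10, adjusted p = 3.09e-05) and IDUA (-0.66, SE 0.16, adjusted p = 0.00478). In DOT1L KO 2 were higher (26.9% of all) and 2 lower (24.2% of all), with HYAL1 at -3.04 (SE 0.19).

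**Figure D3:**
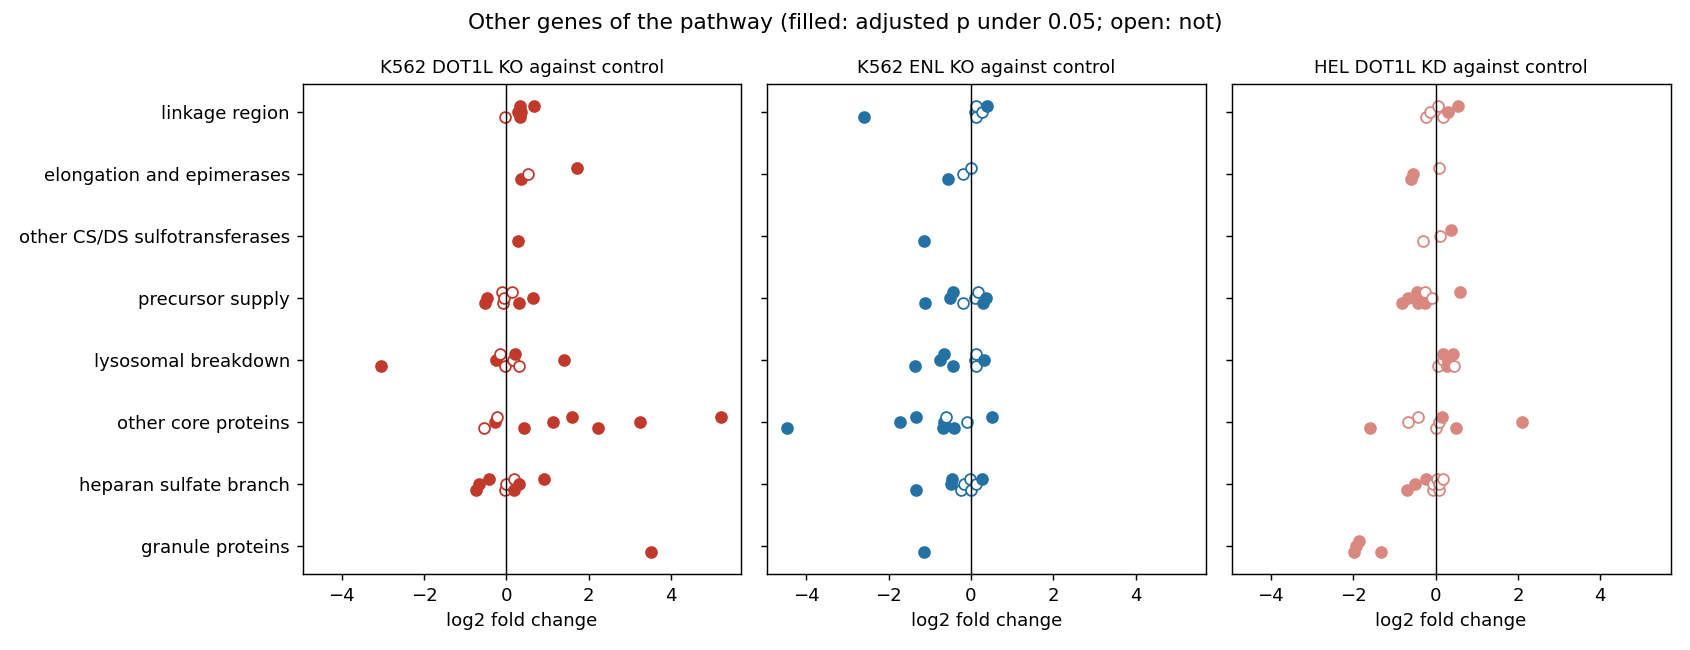
Log2 fold change of the tested genes of 8 other lists (rows) in K562 DOT1L KO, K562 ENL KO and HEL DOT1L KD; filled points are past an adjusted p of 0.05 and open points are not. In the row of other core proteins most points lie right of 0 in DOT1L KO (median 1.13, or 0.42 without VCAN and CD74) and left of 0 in ENL KO (median -0.66), and the 4 granule proteins tested in HEL all lie left of 0.

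CHST3 and SRGN lie on the same chromosome, with starts 2.88 Mb apart. The tested genes next to CHST3 are PSAP and CDH23 before it and SPOCK2 and ASCC1 after it. In DOT1L KO their log2 fold changes were 0.21 (SE 0.05), 1.64 (SE 0.25), 1.87 (SE 0.61) and -0.28 (SE 0.06), each far below that of CHST3. SPOCK2 rested on 9 control counts and its ratio of summed counts was 3.71 (95% exact interval 1.83 to 8.53). It and OIT3 passed the filter only through the DOT1L KO and had to be higher there. Of the 13 tested genes whose start lies within 1000 kb of that of CHST3, 5 moved by 1 or more on the log2 scale. Both SPOCK2 and OIT3 are among these 5. Of all tested genes 16.6% moved as much, in either direction. Nothing is read from the 5, since this contrast chose CHST3. Next to SRGN the tested genes KIF1BP, DDX21, VPS26A and SUPV3L1 had 0.16, -0.13, -0.33 and -0.23 in DOT1L KO. In the ENL KO, where SRGN fell by 1.02, these were 0.02, 0.03, -0.12 and -0.08, with edgeR adjusted p from 0.192 to 0.902. In the HEL KD, where SRGN fell by 0.47, KIF1BP fell by 1.11 (SE 0.11, adjusted p = 5.18e-12), DDX21 by 0.30 (SE 0.03, adjusted p = 7.75e-12) and VPS26A by 0.37 (SE 0.05, adjusted p = 9.92e-08), and SUPV3L1 was not past the threshold (0.08, SE 0.08, adjusted p = 0.451).

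**Figure D4:**
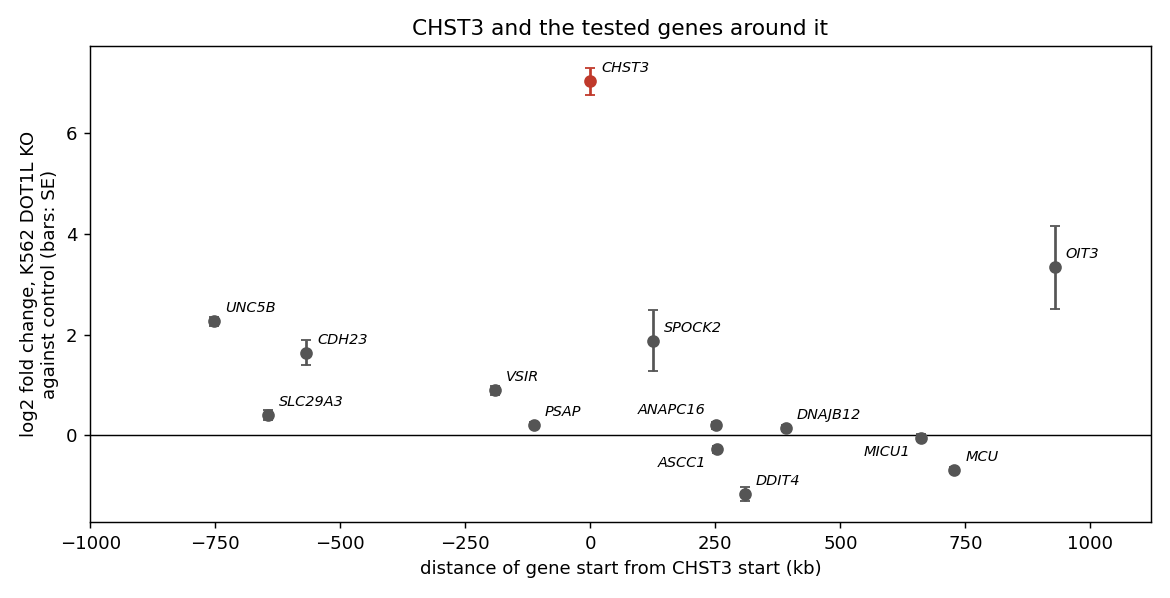
Log2 fold change in K562 DOT1L KO against control (points, with SE as bars) of CHST3 and the 13 tested genes around it, by the distance of their start from that of CHST3 in kb. CHST3 stands at 7.03, its nearest tested neighbours PSAP and SPOCK2 at 0.21 and 1.87, and OIT3, at the right edge, at 3.33 with an SE of 0.82.

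The genes most like CHST3 across the 8 K562 libraries, by Pearson's r of log2(CPM + 0.5) among 10238 genes with a mean of at least 5 CPM, were PLCB2 (r = 0.999), THBS1 (0.998) and HEPACAM2 (0.998). All 3 were close to equal in control and ENL KO and higher in DOT1L KO, which their choice by likeness to CHST3 fixed in advance. THBS1, for example, had group means of 0.423, 0.475 and 16.2 CPM in control, ENL KO and DOT1L KO. HEPACAM2 had 1.76, 1.51 and 31.0 CPM in that order, so both were above 5 CPM only in DOT1L KO. The genes most like SRGN were MAPK8IP1 (0.993), MLLT11 (0.992) and AKR1C1 (0.991), with MLLT11 at 77.3, 35.2 and 42.4 CPM in the same order. AKR1C1 has near-identical paralogues, so its counts are uncertain. The libraries share 3 groups and so few levels, and these values describe a pattern over them only.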

How the data were processed

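RNA-seq tables of K562 (fragment counts per gene) and HEL (read counts per gene) were used, 13 of the 74 samples of the series; the other 61 were not analysed here. The authors deposited whole-number counts, with exon positions and an exonic length in bases (another deposited value, used for RPKM), per the file headers. The submitters' processing notes name fastp 0.13.1, HISAT2 2.1.0, Bowtie2 2.3.4.1, deepTools and featureCounts 1.6.1, with the builds hg38 and hg19; which made these counts, and the use of strand, are not given in the sources used here. The member positions overlap RefSeq GRCh38.p14. Libraries were polyadenylated RNA made with a dUTP strand-marking method, per the labels' protocols.

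K562 control columns 2 and 3 held identical counts and were counted as 1 library. Between other K562 replicate pairs the chi-square divided by its degrees of freedom was 4.24 to 10.2. It was 1.48 between the HEL controls and 1.33 between the HEL KD libraries. HEL replicates thus differed little beyond counting error. The HEL p-values measure that small spread and are not comparable with those of K562. Genes were kept by filterByExpr (minimum count 10, minimum total 15), scaled by TMM and compared with edgeR 4.0.16 (glmQLFit, glmQLFTest, R 4.3.3), the 3 K562 groups in 1 fit and HEL in another, with Benjamini-Hochberg adjustment over all genes tested and a threshold of 0.05. "Higher", "lower", "rose" and "fell" in counts of genes mean past that threshold. Ratios of summed counts have exact 95% intervals. DESeq2 1.42.0, other scalings, no filter, a minimum fold, a replicate block and leaving out each library were alternatives. The members and lists were chosen with earlier results of these data known. Named besides the 10 members were, per list, at most 3 genes past the threshold with the largest absolute change in ENL KO or HEL KD, list genes over 50 RPKM, the nearest 2 tested genes on each side of CHST3 and SRGN, and the 3 genes most like each.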

Additional observations from a re-analysis of the deposited data

Results flagged for a closer look

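For 4 genes with a fold in both lines every library of DOT1L KO in K562 lay on one side of its controls and every library of the KD in HEL on the other side. The K562 minus HEL differences of their log2 fold changes were 7.91 for CHST3, 1.02 for CSGALNACT2, -0.61 for CHST11 and -1.42 for CHST12. These differences were not tested. Of the 10 genes, all 8 tested in K562 DOT1L KO and 7 of 9 tested in HEL had groups that did not overlap. The share of all genes that separate in opposite directions was not computed, so nothing is read from the count of 4. CHST3 passed the filter in K562 only through the DOT1L KO and had to differ there. CHST15 also separated in opposite directions, but it was at or under the floor of 3 counts in every K562 library and has no fold there. Cell line goes together with knockout against knockdown, and with fragment against read counting, so these cannot be told apart.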

How the results depend on the processing

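Of the alternative fold changes of the 10 genes, 394 kept their direction and side of the threshold, 31 lost and 4 gained the threshold and 5 changed sign. The sign changes were CHST3 in ENL KO (-0.24 without control 1 and -0.07 without ENL KO 1, in a range of -0.24 to 1.66), CHPF between the knockouts (-0.0040 without DOT1L KO 1 and -0.036 without ENL KO 3, up to 0.062) and XYLT1 in HEL (-0.085 without control 1, up to 0.17). CHST3 in ENL KO had no value in a fit of its 2 groups alone. DESeq2 called 2017 genes higher in HEL and 3 of the 10 genes lower. At a required log2 change of at least 1, higher and lower calls were 1680 and 585 genes in DOT1L KO (0 of the 10 lower), 413 and 1160 in ENL KO, 2198 and 546 between the knockouts (2 of the 10 higher, 0 lower) and 426 and 312 in HEL (1 of the 10 each way). Leaving out 1 library at a time gave 3006 to 3603 higher and 2611 to 3205 lower in DOT1L KO, 1671 to 2584 and 2423 to 3074 in ENL KO (fewest higher without control 1, 1867 without control 2), 4118 to 4390 and 3545 to 3905 between the knockouts, and 2821 to 2921 and 3063 to 3286 in HEL. Of the 10 genes it left 1 to 3 lower in ENL KO (1 without control 1), 3 to 4 higher between the knockouts and 4 lower in HEL. Same-numbered replicates were not taken as pairs, since the labels do not say that a number marks a shared culture or day. The r of their deviations was 0.0684 to 0.355 in K562 (over 0.1 in 5 of 7 pairs) and -0.0026 in HEL, so a shared effect in K562 stays possible. With the replicate block 4323 genes were higher and 4017 lower in DOT1L KO, in place of 3846 and 3459. CHPF in DOT1L KO was then 0.14 and past the threshold, and no other call on the 10 genes changed. CHST3, CSGALNACT1 and CHST15 are limited by depth. No group had enough libraries to look for an outlying one.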
